A study of Homo sapiens with 4 samples.

Results

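CDK4/6 inhibition by a drug and by siRNA was examined as a single condition in HepG2, a human hepatocellular carcinoma cell line, by placing the library of cells treated with PD-0332991 and the library of cells transfected with siRNAs against CDK4 and CDK6 (CDK4/6 KD) together against the libraries of their controls, cells given DMSO and cells transfected with scrambled siRNA. All 4 libraries of the series entered the comparison, 2 inhibited and 2 control, each condition having been sequenced once, and every gene was followed for whether both inhibited libraries lay above, or both below, both controls. Genes with at least 10 reads in at least 2 libraries numbered 13245 of the 24462 listed, after reads of repeated symbols had been summed. How long the sequenced cells had been exposed to the drug or the siRNAs, and at what dose, was not stated in the sources used here, and nothing states whether the libraries came from separately started cultures.

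CDK4 and CDK6 are the kinases that, with D-type cyclins, phosphorylate the retinoblastoma protein (RB) in early G1. Phosphorylated RB releases E2F transcription factors, which drive genes for DNA replication and nucleotide supply. A later wave of genes for mitosis is held down in resting cells by the DREAM complex. The promoter elements it acts through include the cell cycle genes homology region (CHR). PD-0332991 (palbociclib) blocks the kinase activity of both proteins, whereas siRNA lowers their mRNA. HepG2 cells keep many functions of hepatocytes, among them the secretion of plasma proteins.

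The depth was between 8983848 and 11176880 reads per library, and values are given as CPM, read counts scaled to a common library size after TMM normalization. A fold change is the log2 ratio of inhibited to control from edgeR's quasi-likelihood test with the arm (drug or siRNA) as a block, given with its standard error (SE) and a p-value adjusted over all genes by the Benjamini-Hochberg method. The spread behind these p-values starts from the disagreement between the drug arm and the siRNA arm in their response. It thus mixes the difference between agents with that between single libraries. Each gene had 1 residual degree of freedom, and its spread was shrunk to a value shared across genes with 12.3 prior degrees of freedom. A gene could therefore pass although its arms disagreed. The hepatocyte genes ALB, APOA1 and AHSG each had at least 2029 CPM in every library. The 18 leukocyte markers summed to between 514 and 1035 CPM, nearly all of it LYZ, lysozyme, with 502 to 1018 CPM, while PTPRC, the pan-leukocyte gene, had at most 2 reads. The 19 fibroblast and endothelial markers summed to between 154 and 267 CPM.

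The mRNAs of the targets were checked first. CDK4 had 299.9 CPM in DMSO, 260.2 in PD-0332991, 353 in scrambled siRNA and 72.1 with CDK4/6 KD. The KD library stood far under the other 3, and the pooled fold change did not pass the test (log2 fold change -1.24, adjusted p = 0.214 by edgeR). For CDK6 the 4 values in the same order were 513, 484, 534 and 130 CPM (log2 fold change -1.06, adjusted p = 0.285). RB1 mRNA had 33.9 CPM in DMSO, 17.1 in PD-0332991, 18.4 in scrambled siRNA and 32.4 with CDK4/6 KD, and the groups overlapped. SIRT3, the mitochondrial deacetylase the study was concerned with, had 67.2, 59.2, 64.6 and 74.4 CPM, also overlapping (log2 fold change 0.01, SE 0.28, adjusted p = 0.995).

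Genes that passed the test and were lower under inhibition were mainly genes of cell division. Those that passed and were higher were fewer and mixed. At an adjusted p under 0.05, 80 genes fell, or 0.604% of those tested, and 25 rose, or 0.189%. Of these 105 genes, 104 had no overlap between the groups, the exception being MMP11. Without any test, both inhibited libraries lay above both controls for 2861 genes (21.6%) and below for 2738 (20.7%). The distance between the nearest libraries, called the gap here and measured on log2(CPM + 1), was under 0.1 for 782 and 749 of them. A gap of at least 1, that is 2-fold, was left for 60 genes above (0.453%) and 109 below (0.823%). Of the 2861 genes above, 167 reached 10 reads in 2 libraries only through the inhibited group, and 49 of the 2738 below did so only through the controls, so that they had to differ. Called genes among them were ITIH1 and ZNF22 above and FBXO43 below. The calls depended on the fit. None was made by edgeR with library totals in place of TMM, with a minimum of 50 reads, without the arm block or without either control library, whereas 50 rose and 162 fell with another size factor (RLE), and 42 rose and 163 fell with DESeq2.

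**Figure D1:**
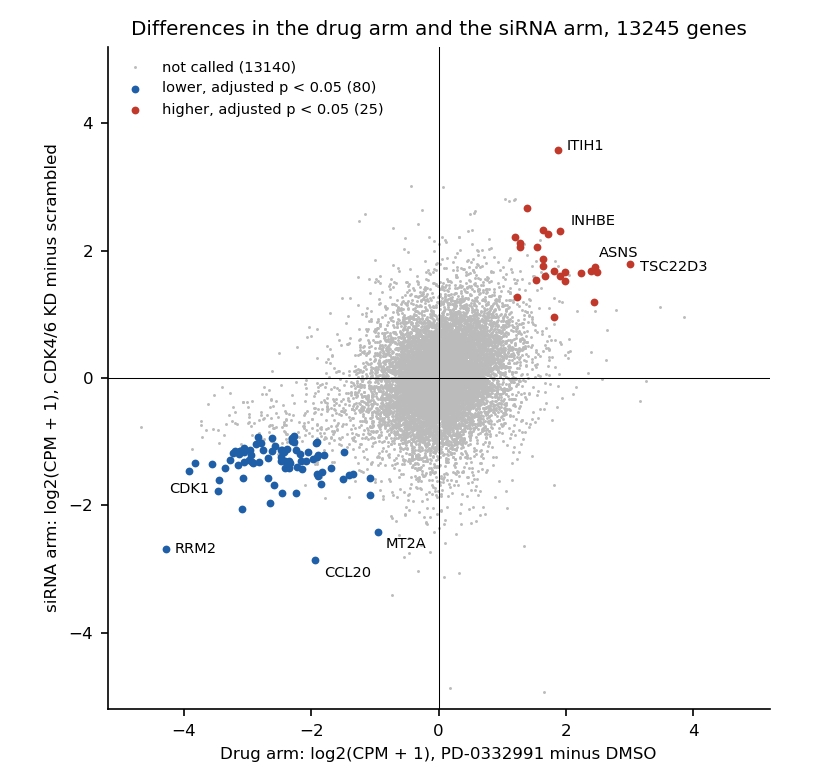
Difference in log2(CPM + 1) between PD-0332991 and DMSO (x axis) and between CDK4/6 KD and scrambled siRNA (y axis) for each of 13245 genes, with genes called lower in blue and called higher in red. The 80 blue points lie in the lower left, mostly farther from 0 along the drug axis, and the 25 red points lie in the upper right.

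The fall was deeper in the drug arm. Among the 80 genes that fell, 73 changed more between PD-0332991 and DMSO than between CDK4/6 KD and scrambled siRNA, with a median difference in log2(CPM + 1) of -2.46 in the drug arm and -1.3 in the siRNA arm. The scrambled siRNA library was already lower than DMSO for 68 of these 80 genes. The 25 genes that rose showed no such lean, with 12 changing more in the drug arm and medians of 1.81 and 1.74. Over all genes tested, the median absolute difference was 0.334 between PD-0332991 and DMSO and 0.368 between CDK4/6 KD and scrambled siRNA, and 0.316 between the 2 controls.

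RRM2, the small subunit of ribonucleotide reductase and the limiting step in making deoxynucleotides, had the widest gap of all. It stood at 219 CPM in DMSO and 209 in scrambled siRNA and at 10.3 in PD-0332991 and 31.8 in CDK4/6 KD (log2 fold change -3.53, SE 0.39, adjusted p = 0.00701), so that the higher of the inhibited libraries was still far under the lower control. RRM1, the large subunit, fell from 324 and 274 CPM in the controls to 65.2 in PD-0332991 and 138 in CDK4/6 KD (log2 fold change -1.65, adjusted p = 0.0428). RRM2B, the p53-inducible alternative to RRM2, overlapped, at 25.8 CPM in DMSO, 25.5 in PD-0332991, 20.1 in scrambled siRNA and 36.5 in CDK4/6 KD. TK1, thymidine kinase of the salvage pathway, fell by 2.01 on the log2 scale. Of 16 deoxynucleotide supply genes tested, 10 lay below, none above, and 3 were called.

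The promoters of the genes that fell carried the CCAAT, CHR and E2F words searched here more often than those of tested genes at large. Windows from 250 bases before to 50 after the start site were taken from RefSeq (GRCh38.p14), using the first start listed for a gene, for 10349 of the tested genes and for 85 of the 105 called. Both strands were searched for CCAAT, for the CHR words TTTGAA and TTCGAA, for the E2F words TTTCCCGC, TTTGGCGC, TTTGCCGC and TTTCGCGC, and for TGATGNAA, the element bound by ATF4 and its partners (CARE). Stretches of 150 bases that end at the base before the start are shown 5′ to 3′ on the gene's own strand, with these words, or their reverse complements, in capitals. RRM2 is shown for its 3 CCAAT boxes, and CDC25A and MCM6 for E2F words beside CCAAT boxes. CCNB1 is a mitotic gene with CCAAT boxes and none of the other words searched. CKS1B is shown for CCAAT boxes upstream of a CHR, and ASNS, a gene that rose, for its CARE.
RRM2 (chr2:10122589-10122738, plus strand): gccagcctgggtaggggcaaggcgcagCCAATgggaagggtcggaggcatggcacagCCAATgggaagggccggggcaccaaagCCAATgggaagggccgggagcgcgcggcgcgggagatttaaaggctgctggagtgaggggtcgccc
CDC25A (chr3:48188418-48188567, minus strand): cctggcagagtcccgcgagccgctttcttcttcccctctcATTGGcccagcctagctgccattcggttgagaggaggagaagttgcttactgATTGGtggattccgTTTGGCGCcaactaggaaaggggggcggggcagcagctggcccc
MCM6 (chr2:135876444-135876593, minus strand): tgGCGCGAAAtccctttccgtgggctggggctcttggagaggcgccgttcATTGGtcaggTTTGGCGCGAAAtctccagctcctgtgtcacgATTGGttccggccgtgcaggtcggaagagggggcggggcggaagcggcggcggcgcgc
CCNB1 (chr5:69167000-69167149, plus strand): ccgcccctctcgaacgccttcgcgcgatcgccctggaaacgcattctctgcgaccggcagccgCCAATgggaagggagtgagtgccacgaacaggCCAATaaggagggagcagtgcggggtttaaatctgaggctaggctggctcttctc
CKS1B (chr1:154974531-154974680, plus strand): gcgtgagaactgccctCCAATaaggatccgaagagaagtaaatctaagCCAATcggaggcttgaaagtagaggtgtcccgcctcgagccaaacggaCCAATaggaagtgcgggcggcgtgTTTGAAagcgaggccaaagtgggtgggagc
ASNS (chr7:97872409-97872558, minus strand): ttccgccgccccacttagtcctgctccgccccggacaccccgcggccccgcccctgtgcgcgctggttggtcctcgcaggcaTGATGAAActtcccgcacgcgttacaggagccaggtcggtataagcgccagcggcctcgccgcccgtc

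The CCAAT boxes of RRM2 start 123, 93 and 66 bases before the start and those of CCNB1 87 and 55 bases before it. In MCM6 the word TTTGGCGC, 90 bases before the start, overlaps a TTTCGCGC on the opposite strand, so that these count as 2 words over 1 stretch. A CCAAT box was found in 48 of the 65 matched genes that fell (73.8%), in 5 of the 20 that rose (25%) and in 36.9% of all matched genes. The CHR words stood in 40%, 25% and 11.4%, and the E2F words in 26.2%, none of the 20, and 5.39%. A CARE was present for 3 of the 20 genes that rose (15%), ALPK2, ASNS and TRIM50, and for 1.74% of all matched genes. These shares are descriptions of letters in fixed windows, not of binding, and their differences were not tested.

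**Figure D2:**
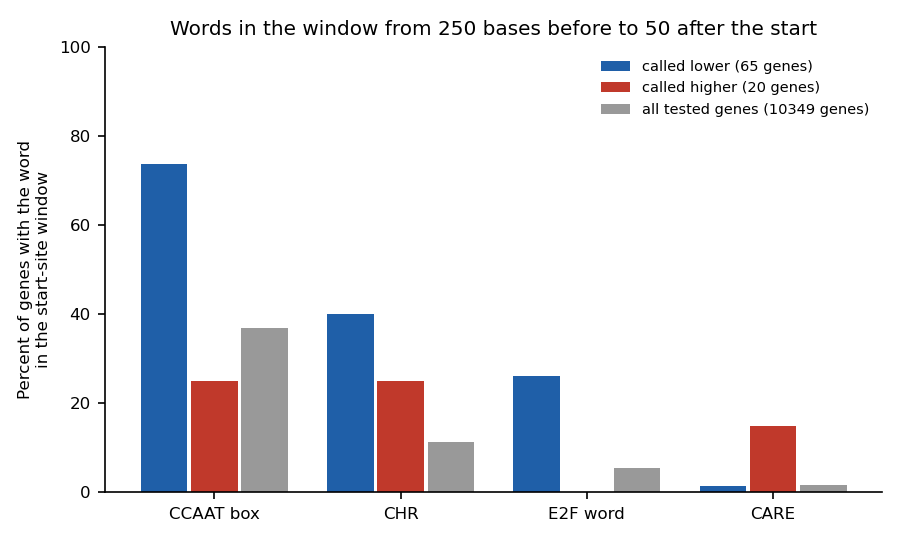
Percent of genes (y axis) whose window around the start site holds each word (x axis), for 65 genes called lower, 20 called higher and all 10349 tested genes with a window. CCAAT boxes stand in 73.8% of the windows of genes called lower against 36.9% of all.

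Genes that fire replication origins and build the replisome were low under both forms of inhibition. Of the 56 tested, 54 lay below both controls and none above, 15 were called, and the median log2 fold change was -1.43 against 0.02 over all genes tested. ORC1, the origin recognition subunit that loads in G1, had 20.7 CPM in DMSO, 15.7 in scrambled siRNA, 2.44 in PD-0332991 and 3.28 in CDK4/6 KD (log2 fold change -2.65, SE 0.42, adjusted p = 0.0196). The other ORC subunits lay below as well but with smaller differences, down to ORC4 at -0.02. All 6 subunits of the MCM2-7 helicase lay below with log2 fold changes between -1.99 and -1.64, and 5 were called. MCM2 was the exception, with 200.6, 28.9, 105.6 and 67.4 CPM in DMSO, PD-0332991, scrambled siRNA and CDK4/6 KD (log2 fold change -1.71, adjusted p = 0.0846). GINS1, GINS2 and GINS3, 3 of the 4 subunits of the complex that activates that helicase, fell, with log2 fold changes between -2.26 and -2.02. MCM10, which helps open the origin, was at 61.2 and 51.5 CPM in the controls, 3.11 in PD-0332991 and 18.1 in CDK4/6 KD, so here the inhibited libraries differed widely from each other. DTL, which is outside the list, is the substrate receptor of the ubiquitin ligase that removes the licensing factor CDT1 in S phase. DTL fell, with 52 CPM in DMSO, 5.22 in PD-0332991, 38.7 in scrambled siRNA and 8.5 in CDK4/6 KD (log2 fold change -2.73). CDT1 itself fell by 1.73. The MCM, GINS and ORC subunits were grouped as complexes after their values had been seen. So were the subunits of ribonucleotide reductase and the chromosomal passenger complex, and the families of alpha-tubulins, metallothioneins and SNAR copies described below.

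Mitotic genes fell with them. In the list of mitotic kinases and anaphase-promoting complex genes 36 of 40 lay below and 12 were called (median log2 fold change -1.66). Among 40 spindle and kinesin genes 39 lay below and 9 were called (median -1.72), and among 52 centromere, kinetochore and cohesin genes 48 lay below and 9 were called (median -1.5). No member of these 3 lists lay above. CDK1, the kinase that starts mitosis, had 109 CPM in DMSO, 62.5 in scrambled siRNA, 9.1 in PD-0332991 and 19.8 in CDK4/6 KD (log2 fold change -2.59, SE 0.42, adjusted p = 0.0206). MYBL2, the transcription factor B-MYB that activates late cell cycle genes, went from 202 and 152 CPM in the controls to 23.1 in PD-0332991 and 50.9 in CDK4/6 KD (log2 fold change -2.34). TOP2A, the topoisomerase that untangles sister chromatids, went from 2602 CPM in DMSO and 1917 in scrambled siRNA to 345 and 761 (log2 fold change -2.12, adjusted p = 0.0276). The kinase AURKB and its partners INCENP and CDCA8 in the chromosomal passenger complex all fell, with log2 fold changes between -2.41 and -1.63, while the fourth member BIRC5 (survivin) lay below without passing (log2 fold change -1.81, adjusted p = 0.0759).

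At the kinetochore ZWILCH, a subunit of the RZZ checkpoint complex, fell to a like level in both arms, with 87.7 CPM in DMSO, 86.7 in scrambled siRNA, 23.5 in PD-0332991 and 26.6 in CDK4/6 KD (log2 fold change -1.8, SE 0.28, adjusted p = 0.0196). CENPO, of the constitutive centromere network, was similar, at 33.4 and 33.6 CPM in the controls against 8.22 and 10.9. The controls nearly coincided for both genes. SPC25, in the microtubule-binding NDC80 complex, was instead split between the arms, with 1.33 CPM in PD-0332991 and 10 in CDK4/6 KD against 32.1 and 26.7 in the controls, and with an adjusted p of 0.0499 it was the last gene inside the threshold. CDCA3, which promotes entry into mitosis, fell by 2.72. Reads of HMMR, a spindle protein that fell by 1.92, cannot be told from those of genes that overlap it, because the strand setting of the counting was not stated.

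Upstream of both waves, the RB and E2F genes fell in part. CDC25A, the phosphatase that activates CDK2, had 55.8 CPM in DMSO, 73.8 in scrambled siRNA, 9.33 in PD-0332991 and 20.4 in CDK4/6 KD (log2 fold change -2.21, SE 0.32, adjusted p = 0.0196). E2F1, an activator E2F, was at 83.9, 77, 9.88 and 34.8 CPM in the same order (log2 fold change -2.08, adjusted p = 0.041). These were the 2 genes called of 28 on this list, of which 17 lay below and 1, TFDP2, above. The 17 include CDK4 and CDK6, which the siRNAs targeted. They also include E2F5, CCND2 and E2F6, with gaps of 0.0009, 0.003 and 0.02. E2F7, a repressor E2F, just missed the threshold (log2 fold change -2.46, adjusted p = 0.0544), and RBL1 (p107) had a log2 fold change of -1.5 (adjusted p = 0.0953).

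DNA repair and chromatin copying genes lay in the same direction with fewer calls. Of 48 repair and checkpoint genes 36 lay below and 1 above, and 3 were called. BRCA1, of homologous recombination, had 72.3 CPM in DMSO, 61.8 in scrambled siRNA, 9.55 in PD-0332991 and 30.1 in CDK4/6 KD (log2 fold change -1.95, adjusted p = 0.0491). Of 30 chromatin and DNA methylation genes 22 lay below, none above, and UHRF1, which guides maintenance methylation, and the remodeller HELLS were called, with log2 fold changes of -2.21 and -1.81. Together the 8 lists of cell division held 310 tested genes, of which 262 (84.5%) lay below, 2 above, and 55 were among the 80 that fell. The siRNA targets CDK4 and CDK6 are counted in the 262. In 265 of the 310 the absolute difference was larger in the drug arm, and 253 were lower in scrambled siRNA than in DMSO.

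**Figure D3:**
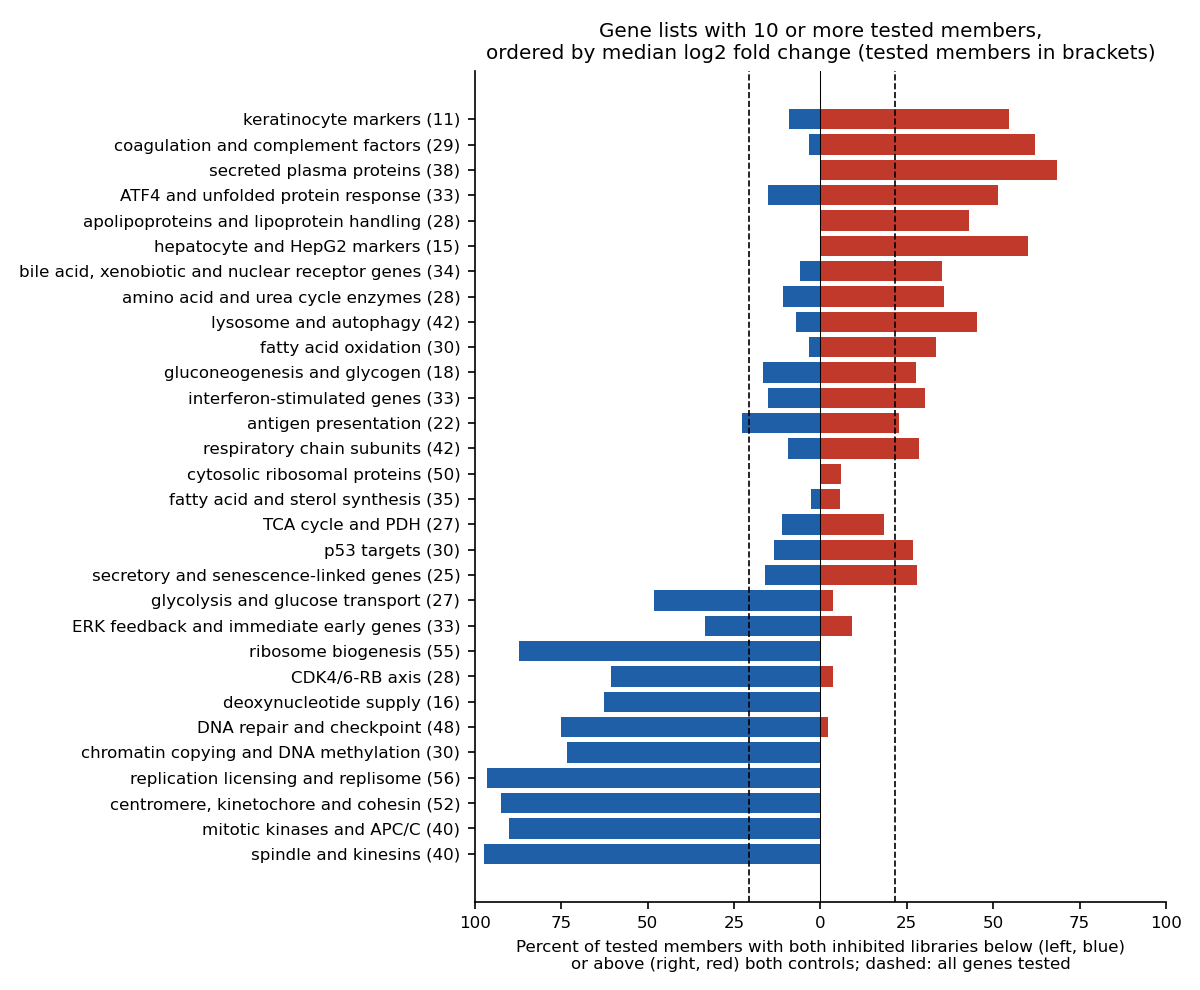
Percent of each list's tested members (number in brackets) for which both inhibited libraries lay below (blue, left) or above (red, right) both controls, with dashed lines at the 20.7% and 21.6% found over all genes tested. Lists of cell division and ribosome biogenesis extend to the left, and lists of secreted liver proteins to the right.

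Ribosome biogenesis genes showed smaller differences. Of 55 tested, 48 (87.3%) lay below and none above, yet none was called by edgeR, 21 having an unadjusted p under 0.05. The median log2 fold change was -0.53, ranging from -0.63 to -0.49 over the alternative settings. NOP56, a core protein of the box C/D snoRNP, had 625 CPM in DMSO, 574 in scrambled siRNA, 329 in PD-0332991 and 339 in CDK4/6 KD (log2 fold change -0.84, adjusted p = 0.175). UTP20, of the small-subunit processome, had 87.3 and 74.1 CPM in the controls against 41.7 and 43.2. For this list the medians of the arms were close, -0.44 for the drug and -0.64 for siRNA, and scrambled siRNA was not lower than DMSO (median difference 0.16). Among the called genes outside the lists was CD3EAP, a subunit of RNA polymerase I (113, 39.6, 105 and 46.5 CPM in DMSO, PD-0332991, scrambled siRNA and CDK4/6 KD, log2 fold change -1.34, adjusted p = 0.0453). Cytosolic ribosomal protein genes themselves mostly overlapped, 3 of 50 lying above and none below.

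Outside the cell division lists were 25 of the 80 genes that fell. Some of these are known for roles in cell division as well, among them DTL and CDCA3, described above, and SHCBP1, CDCA2 and SPDL1, a spindle checkpoint protein, which were picked here after their values had been seen and had log2 fold changes of -2.23, -2.14 and -1.48. Others had different functions. CCL20, a chemokine that attracts cells bearing CCR6, was among the widest gaps, at 46.6 CPM in DMSO, 45.4 in scrambled siRNA, 11.4 in PD-0332991 and 5.4 in CDK4/6 KD (log2 fold change -2.54, SE 0.36, adjusted p = 0.0196). It was 1 of 7 called genes whose fall was deeper in the siRNA arm, with MT1E, MT2A, POLE3, SFN, SLC2A3 and UBR7. MT2A and MT1E, metal-binding metallothioneins, fell by 1.69 and 1.47. Of 8 metallothioneins tested 6 lay below, with gaps down to 0.22 for MT1A, and none above. Over all genes tested 20.7% lay below. TUBA1B, the main alpha-tubulin of dividing cells, went from 2518 CPM in DMSO and 2878 in scrambled siRNA to 571 and 1063, and TUBA1A fell by 1.69. SLC2A3, the glucose transporter GLUT3, had 235 and 303 CPM in the controls against 92.3 and 105 (log2 fold change -1.44, adjusted p = 0.0318), and was the 1 gene called of 27 glycolysis and glucose transport genes, 13 of which lay below. SFN, 14-3-3 sigma, fell by 1.33 with a narrow gap, between 62.5 CPM in PD-0332991, 102 in CDK4/6 KD and 133 in DMSO, the scrambled siRNA library standing far higher at 304.

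Near-identical copies call for care. The SNAR genes, small noncoding RNAs transcribed by RNA polymerase III, gave 4 of the genes that fell (SNAR-B1, SNAR-C3, SNAR-C4 and SNAR-E), and 24 of 26 tested SNAR genes lay below. Of those 26, 9 had exactly the same reads in every library as another copy, so the copies are not separate measurements. SNAR-C4 had 161 CPM in DMSO, 92.8 in scrambled siRNA, 31.2 in PD-0332991 and 36 in CDK4/6 KD. The alpha-tubulin, metallothionein and histone genes and the complement genes C4A and C4B share sequence too, and their split between copies is uncertain.

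**Figure D4:**
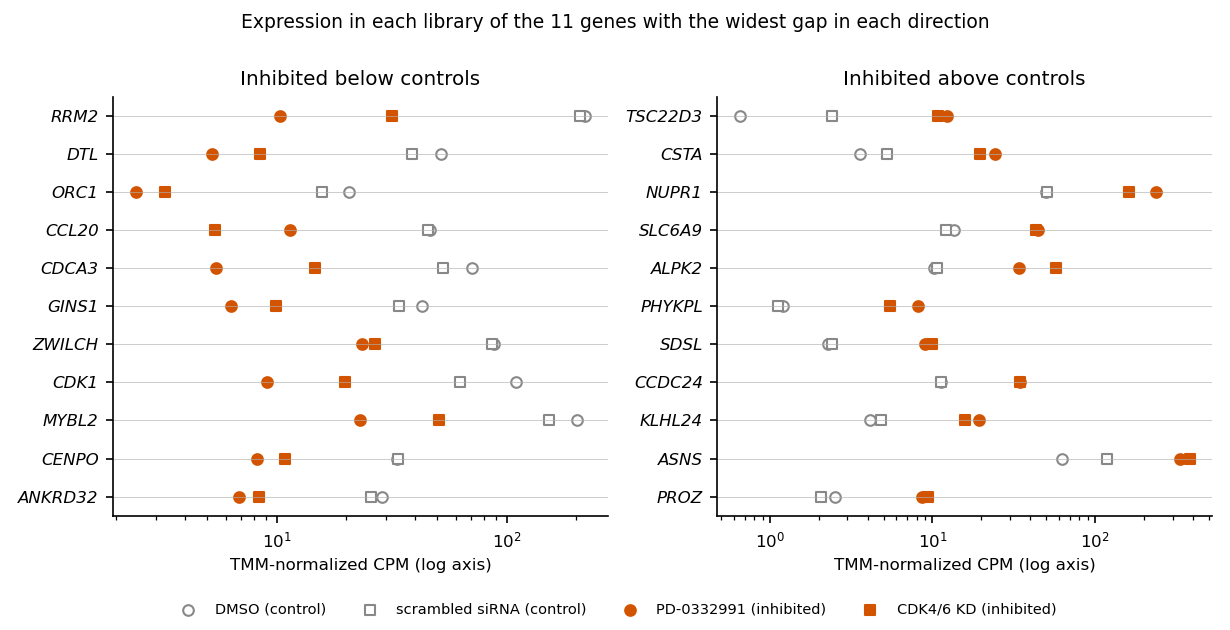
TMM-normalized CPM (log axis) in each of the 4 libraries for the 11 genes with the widest gap below (left) and above (right), among genes with at least 50 reads in at least 2 libraries. Open symbols are controls and filled symbols inhibited libraries, circles the drug arm and squares the siRNA arm, and the groups do not overlap for any of the genes shown.

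Genes that rose included a set of amino acid and stress response genes. ASNS, asparagine synthetase, had 63 CPM in DMSO, 119 in scrambled siRNA, 333 in PD-0332991 and 381 in CDK4/6 KD (log2 fold change 2.04, SE 0.29, adjusted p = 0.0196). NUPR1, a stress-induced nuclear protein, had 49.8 and 50.8 CPM in the controls and 237 and 162 in the inhibited libraries (log2 fold change 1.96, adjusted p = 0.0196). Both belong to the list of ATF4 and unfolded protein response genes, of which 17 of 33 lay above and 5 below, and both were its only calls. ATF4 is the transcription factor that answers amino acid shortage and other stress by inducing amino acid synthesis and transport. Of its further targets, MTHFD2, of mitochondrial folate metabolism, had a log2 fold change of 1.18 (adjusted p = 0.0812) and PSAT1, of serine synthesis, 0.96 (adjusted p = 0.131). The mRNA of ATF4 itself had 0.85 (adjusted p = 0.234), with controls apart at 576 CPM in DMSO and 985 in scrambled siRNA. Other members overlapped, among them TRIB3 (log2 fold change 0.50), CEBPG (0.29), SLC3A2 (0.08) and SLC7A5 (-0.60). The 5 genes below were ATF5, HSPA5, DNAJC3, CALR and EDEM1, the last 4 of which act in protein folding and disposal in the endoplasmic reticulum.

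Among the called genes outside that list, SLC6A9 and PCK2 were named by the rule, and INHBE, ADM2 and JDP2 were chosen after their values had been seen. SLC6A9, a glycine transporter, had 13.6 CPM in DMSO, 12.1 in scrambled siRNA, 44.5 in PD-0332991 and 43.6 in CDK4/6 KD (log2 fold change 1.78, SE 0.31, adjusted p = 0.028), with each pair nearly coinciding. PCK2, the mitochondrial phosphoenolpyruvate carboxykinase, had 133 and 183 CPM in the controls against 470 and 358 (log2 fold change 1.39, adjusted p = 0.0488). The secreted peptides INHBE, a liver activin subunit, and ADM2 rose by 2.15 each, though the controls differed, INHBE standing at 20.4 CPM in DMSO and 43.3 in scrambled siRNA against 79.3 in PD-0332991 and 219 in CDK4/6 KD. JDP2, a repressor of AP-1, rose by 1.92. Among amino acid and urea cycle enzymes 10 of 28 lay above and 3 below with no call, CTH, which makes cysteine, coming nearest (8.39, 24.1, 9.97 and 29.8 CPM in DMSO, PD-0332991, scrambled siRNA and CDK4/6 KD, adjusted p = 0.0514). SDSL, a serine dehydratase homologue, and PHYKPL, which breaks down phosphohydroxylysine, had gaps of 1.55 and 1.56 without passing (adjusted p = 0.0674 and 0.057).

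Genes for proteins that the liver secretes into plasma lay above more often than tested genes at large, though few passed the test. Of 38 secreted plasma protein genes 26 (68.4%) lay above and none below, with a median log2 fold change of 0.71, and of 29 coagulation and complement genes 18 (62.1%) lay above and 1, MBL2, below, with a median of 0.75. F7, coagulation factor VII, rose, with 22.2 CPM in DMSO, 19.5 in scrambled siRNA, 55.5 in PD-0332991 and 88.3 in CDK4/6 KD (log2 fold change 1.75, SE 0.32, adjusted p = 0.0318). PROZ, protein Z, a cofactor in restraining factor Xa, had 2.5 and 2.05 CPM in the controls against 8.66 and 9.38 (log2 fold change 1.99, adjusted p = 0.0742). ITIH3, an inter-alpha-trypsin inhibitor heavy chain, had 15.5, 38.1, 15.9 and 40 CPM in DMSO, PD-0332991, scrambled siRNA and CDK4/6 KD (adjusted p = 0.0689), each pair again nearly coinciding. FGA, a fibrinogen chain, was higher in both inhibited libraries but by much more in CDK4/6 KD (285, 456, 266 and 907 CPM, adjusted p = 0.088).

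ITIH1, another heavy chain of that family, was close to absent in the controls. It had 3 reads in DMSO and 2 in scrambled siRNA against 35 in PD-0332991 and 149 in CDK4/6 KD. The ratio was 11.9 in the drug arm (exact 95% interval 3.75 to 60.4) and 70.8 in the siRNA arm (19.3 to 590), intervals that cover counting error only. It entered the test only through the inhibited libraries, its control reads being at or under the floor of 3, so its call is no support for a rise and neither its p-value nor its fitted fold change is given.

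Lipoprotein genes and some other lists of liver function leaned the same way without a call by edgeR. Of 28 apolipoprotein and lipoprotein genes 12 (42.9%) lay above and none below, and 8 were higher at an unadjusted p under 0.05. APOC3, an inhibitor of triglyceride clearance, had 243 CPM in DMSO, 268 in scrambled siRNA, 481 in PD-0332991 and 695 in CDK4/6 KD (log2 fold change 1.18, adjusted p = 0.0629). APOE had 351 and 364 CPM in the controls against 628 and 643 (log2 fold change 0.83, adjusted p = 0.178). Among fatty acid oxidation genes 10 of 30 (33.3%) lay above and 1 below. Among bile acid, xenobiotic and nuclear receptor genes 12 of 34 (35.3%) lay above and 2 below, and among the hepatocyte markers 9 of 15 (60%) and none. Over all genes tested 21.6% lay above and 20.7% below. Over the 7 liver lists together, 89 of 189 tested genes (47.1%) lay above and 7 (3.7%) below, with a median log2 fold change of 0.47. For 65 of the 189 the drug and siRNA arms did not share a direction. ALB was among them, at 3303 CPM in DMSO, 3083 in PD-0332991, 2565 in scrambled siRNA and 5175 in CDK4/6 KD. The 7 liver lists did not include fatty acid and sterol synthesis, with 2 of 35 genes above and 1 below. Gluconeogenesis and glycogen genes, with 5 of 18 above and 3 below, were left out as well. In bulk samples fewer cells of a kind and less RNA per cell cannot be told apart.

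The remaining genes that rose had varied roles. TSC22D3, the glucocorticoid-induced leucine zipper GILZ, had 0.65 CPM in DMSO, 2.42 in scrambled siRNA, 12.2 in PD-0332991 and 10.8 in CDK4/6 KD (log2 fold change 3, SE 0.56, adjusted p = 0.0318). ULK1, the kinase that starts autophagy, had 27.4, 67.7, 18.3 and 78.8 CPM in DMSO, PD-0332991, scrambled siRNA and CDK4/6 KD (log2 fold change 1.7, adjusted p = 0.0318). It was the 1 call among 42 lysosome and autophagy genes, 19 of which (45.2%) lay above and 3 below, with CTSD, the protease cathepsin D, at 245 and 278 CPM in the controls against 454 and 392.5 (adjusted p = 0.297). TFR2, which takes part in sensing iron in hepatocytes, rose by 2.09 and HPN, the liver serine protease hepsin, by 1.86. KLHL24, an adaptor of a ubiquitin ligase, rose by 1.96, the alpha-kinase ALPK2 by 2.09, and CCDC24 by 1.62. MMP11, a secreted metalloproteinase, was called on the agreement between arms (7.95 CPM in DMSO to 27 in PD-0332991, 1.12 in scrambled siRNA to 6.73 in CDK4/6 KD) although CDK4/6 KD stood under DMSO. Among the fibroblast and endothelial markers, the collagen genes COL1A1 and COL1A2 showed the same order of libraries, whereas ACTA2 and ESAM did not. ACTA2 had 88 CPM in DMSO, 175.9 in PD-0332991, 120 in scrambled siRNA and 126.9 with CDK4/6 KD. ESAM had 14.4, 8.1, 38.3 and 7.7 in the same order. COL1A1, a collagen of fibroblasts, had 36.2 CPM in DMSO, 52 in PD-0332991, 6.8 in scrambled siRNA and 18.3 with CDK4/6 KD, and COL1A2 had 7.19, 16.4, 1.58 and 3.19, neither passing the test (adjusted p = 0.243 and 0.311). Of the 7 tested fibroblast and endothelial markers 1 lay above and 1 below, with a median log2 fold change of 0.95, and their part in the level of MMP11 was not tested.

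CSTA, cystatin A, a protease inhibitor abundant in stratified epithelium, had 3.59 CPM in DMSO, 5.22 in scrambled siRNA, 24.1 in PD-0332991 and 19.7 in CDK4/6 KD (log2 fold change 2.32, SE 0.39, adjusted p = 0.0251). Of 11 keratinocyte markers tested, 6 lay above and 1 below, and KRT14, a basal keratin, had 9 reads in DMSO, 249 in PD-0332991, 31 in scrambled siRNA and 74 in CDK4/6 KD (adjusted p = 0.081). Several of these markers were highest in the PD-0332991 library. The median difference in log2(CPM + 1) over the tested markers was 2.16 in the drug arm and 0.18 in the siRNA arm. The most abundant markers did not follow this. SFN had 133 CPM in DMSO, 62.5 in PD-0332991, 304 in scrambled siRNA and 102 in CDK4/6 KD. KRT10 had 66, 77.8, 47.9 and 87.3 CPM in the same order, and KRT15 and LY6D were also highest in CDK4/6 KD. KRT6A, a keratin of stressed epithelium, had 9 reads in DMSO, 150 in PD-0332991, 37 in scrambled siRNA and 28 with CDK4/6 KD, and SPRR1B, of the cornified envelope, had 4, 57, 13 and 15. The summed level of the 23 listed keratinocyte markers was 209.9 CPM in DMSO, 241 in PD-0332991, 369.6 in scrambled siRNA and 218 in CDK4/6 KD, most of it SFN and KRT10, while TP63, the regulator that defines these cells, had at most 1 read. The part of other cells or of carried-over material in the level of CSTA was not tested.

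The remaining lists had few members with wide gaps. Of 30 p53 targets 8 (26.7%) lay above and 4 below with no call by edgeR (2 higher and 1 lower at an unadjusted p under 0.05) and a median log2 fold change of -0.04, TP53INP1 (24.1, 41.5, 14.7 and 40.6 CPM in DMSO, PD-0332991, scrambled siRNA and CDK4/6 KD) and BBC3, the cell death gene PUMA (log2 fold change 1.03, adjusted p = 0.137), having the widest gaps. Interferon-stimulated genes had 10 of 33 above and 5 below, antigen presentation genes 5 of 22 each way, respiratory chain subunits 12 of 42 above and 4 below, and TCA cycle and PDH genes 5 of 27 above and 3 below, all without a call. Of 33 ERK feedback and immediate early genes 11 lay below and 3 above, again with none called (7 lower and 1 higher at an unadjusted p under 0.05), FOSL1, an AP-1 subunit, having the widest gap (12.5 and 12.8 CPM in the controls against 4.66 and 5.49, adjusted p = 0.164). Of the 7 sirtuins 2 lay above, SIRT5 by a gap of 0.04, and none below.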

How the data were processed

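Total RNA of HepG2 cells had been made into QuantSeq 3′ mRNA libraries, in which reads start near the poly(A) tail. The authors deposited unnormalized read counts per gene symbol, 1 file per condition. The submitters' processing notes name Bowtie2, edgeR and hg19, while the counter, annotation and strand setting are not given in the sources used here. Reads were summed over rows for the 286 repeated symbols. Genes with at least 10 reads in 2 or more libraries were fitted with edgeR 4.0.16 (R 4.3.3; TMM, glmQLFit and glmQLFTest, arm plus inhibition, 1 residual degree of freedom). DESeq2 1.42.0 and the other alternatives are described in the closing section. The difference between the siRNA and drug arms in the controls had a correlation of 0.09 across genes with that difference in the inhibited libraries. This is not the correlation of the drug response with the siRNA response. Scripts were tested on simulated counts. Named genes were CDK4, CDK6, RB1 and SIRT3, the 12 widest gaps each way with at least 50 reads in 2 libraries, and up to 4 members per list by gap in the list's main direction. Some genes that this rule names are not reported here. Others that are named were chosen after their values were seen. The members and the 34 gene lists were chosen with earlier results of these data known.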

Additional observations from a re-analysis of the deposited data

Results flagged for a closer look

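The effect of inhibition had opposite signs in the 2 arms for the results below, each resting on 1 library per condition, and the differences were not tested. RB1 was lower by 0.95 on the log2(CPM + 1) scale in the drug arm and higher by 0.78 in the siRNA arm, a difference of 1.73. SIRT3 stood at -0.18 and 0.20, a difference of 0.38. For the fatty acid and sterol synthesis genes the medians were -0.25 with the drug and 0.34 with siRNA (difference 0.59), and for TCA cycle and PDH genes -0.15 and 0.16 (difference 0.31). The medians were instead higher with the drug for gluconeogenesis and glycogen genes (0.32 and -0.14, difference -0.46), for the 5 tested NKG2D and DNAM1 ligands (0.08 and -0.43, difference -0.51), for secretory and senescence-linked genes (0.15 and -0.11, difference -0.27) and for cytosolic ribosomal proteins (0.26 and -0.11, difference -0.37).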

How the results depend on the processing

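Counts of called genes depended on the fit, while the list medians of the cell division, ribosome biogenesis, plasma protein, coagulation and apolipoprotein genes kept their sign in all 11 alternatives. With RLE size factors 50 genes were called higher and 162 lower, with DESeq2 42 and 163, and with every gene of at least 1 read 139 and 381. With library totals alone, with a minimum of 50 reads in 2 or more libraries, and with no replicate block for the arm, edgeR called 0 in both directions (at an unadjusted p under 0.05, 748 higher and 641 lower, 604 and 713, and 651 and 770). The prior degrees of freedom, which set how far a gene's spread is shrunk to the common one, were 12.3 in the reported fit. They were 5.83, 8.58 and 6.90 in the 3 fits just listed and 15.4 with RLE. With every gene of at least 1 read they were infinite, so that no gene kept a spread of its own. DESeq2 gave no adjusted p for 2311 of the 13245 genes. Leaving out 1 library, without the block and with the lone library assumed to vary like the others, gave 0 to 79 higher and 0 to 183 lower, with 0 calls without either control (692 higher and 569 lower at an unadjusted p under 0.05 without DMSO, 374 and 541 without scrambled siRNA), 79 and 167 without PD-0332991, and 29 and 183 without CDK4/6 KD. The 80 genes lower and 25 higher were all among those called with RLE, and 79 and 24 among those called with DESeq2. With 1 library fewer to satisfy, genes above numbered 4710 to 4808 and genes below 4401 to 4761. With the 50-read minimum 37 genes kept a 2-fold gap above.

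The signs of the log2 fold changes of RB1 and SIRT3 were not stable. RB1 ranged from -0.63 to 0.42 when 1 library was left out, being positive without DMSO (0.42) and without PD-0332991 (0.31). SIRT3 ranged from -0.17 to 0.17 in that way, and its log2 fold change was -0.0027 with RLE, -0.0028 with DESeq2, -0.0051 with every gene of at least 1 read, -0.0089 without scrambled siRNA and -0.17 without CDK4/6 KD. The other genes named by the rule kept their direction in every setting run. The arms share no replicate number in the labels, and the block is the arm the labels name. With 2 libraries a side, genes of low counts were judged on few reads, and agents, libraries and cultures cannot be told apart.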
